A study of Arabidopsis thaliana with 8 samples.

Results

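FLOWERING LOCUS C (FLC, AT5G10140) and its 5 closest relatives, MADS AFFECTING FLOWERING 1 to 5 (MAF1, also called FLM, AT1G77080; MAF2, AT5G65050, listed as AGL31 in the annotation; MAF3, AT5G65060; MAF4, AT5G65070; MAF5, AT5G65080), are described here through the nucleosomes listed over them. A nucleosome was taken as a member where it overlapped the stretch from 2 kb upstream of the annotated start of one of these genes to 1 kb past its end, and an interval that fell in 2 neighbouring stretches was counted once. The 6 stretches together hold 40185 bp. Over them lay 82 of the 242336 nuclear nucleosomes listed for low digest dex, 83 of 316733 for low digest mock, 103 of 376240 in the list labelled high digest dex, and 184 of 482098 for high digest mock.

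All material was Landsberg erecta callus carrying 35S:LFY-GR, a fusion of the floral regulator LEAFY (LFY) to the glucocorticoid receptor hormone-binding domain that is driven by the constitutive viral 35S promoter and enters the nucleus when the steroid dexamethasone (dex) is given. Roots were cut from 3-week-old seedlings, held for up to 5 days on callus-inducing medium (CIM), and given dex or mock solution for 1 h. Chromatin was then cut with a low or a high (standard) amount of micrococcal nuclease (MNase), which degrades DNA outside nucleosomes, and mononucleosomal DNA was sequenced from 8 libraries, 2 for each of low digest dex, low digest mock, high digest dex and high digest mock. Each condition is represented by 1 list of significant nucleosomes, so no value below has a spread between replicates and no difference between lists could be tested. The mock samples carry the transgene too, no sample without it was analysed here, and MNase data hold no marker by which the callus label could be checked.

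FLC encodes a MADS-domain repressor of flowering that binds the flowering promoters FT and SOC1, and it is silenced by prolonged cold, a process called vernalization. Silencing begins in a short nucleation region at the start of the long first intron, where the B3-domain protein VAL1 binds RY motifs and Polycomb repressive complex 2 (PRC2) deposits H3K27me3, while antisense transcripts, COOLAIR, are made from the other end of the gene. MAF1 (FLM) acts with the repressor SVP in the response of flowering to ambient temperature, and MAF2 to MAF5, also regulators of flowering time, stand as a tandem array. The FLC allele of Landsberg erecta carries a transposable element in intron 1 that the Columbia reference lacks, so reads of that element have no place in these lists.

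In RefSeq coordinates on TAIR10.1, FLC lies at chr5:3173382-3179448 on the minus strand, with an antisense long noncoding RNA, AT5G01675, annotated across it, and MAF1 at chr1:28955483-28960234 on the plus strand. The array of MAF2 (chr5:25982254-25986435), MAF3 (chr5:25987309-25991412), MAF4 (chr5:25992193-25996202) and MAF5 (chr5:25997504-26002619) runs along the plus strand. Intron 1 is 3493 bp in FLC, 2470 bp in MAF1, 2081 bp in MAF2, 1959 bp in MAF3 and 2955 bp in MAF5, against a median of 147 bp over 21847 genes with introns. MAF4 departs from this with 403 bp in its transcript of longest coding sequence. The introns of the 6 genes are AT-rich. Of the 40185 bp only 58 bp (0.144%) stand at the middle of a 50-mer that recurs in the Columbia reference. The relatives thus differ at this length almost throughout that reference. Whether reads of Landsberg erecta can be told apart as well was not tested.

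The first coding exon opens the MADS domain. Over the 6 genes its median covered share was 60.8% against 45.8% of all genes for low digest dex, 83.8% against 72.5% for low digest mock, 94.6% against 81.0% in the list labelled high digest dex, and 89.7% against 84.1% for high digest mock. High coverage of this exon was thus not confined to these genes. Its first 90 bases in the aligned frame are shown from RefSeq TAIR10.1 with capitals for bases that are the same in all 6 genes. In MAF5 they begin 21 bases into the annotated coding sequence.
FLC (chr5:3179250-3179339, minus strand): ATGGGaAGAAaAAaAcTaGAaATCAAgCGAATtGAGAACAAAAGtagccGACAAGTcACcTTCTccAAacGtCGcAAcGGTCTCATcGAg
MAF1 (chr1:28955679-28955768): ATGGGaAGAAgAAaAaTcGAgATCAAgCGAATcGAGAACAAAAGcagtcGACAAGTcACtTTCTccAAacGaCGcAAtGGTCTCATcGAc
MAF2 (chr5:25982415-25982504): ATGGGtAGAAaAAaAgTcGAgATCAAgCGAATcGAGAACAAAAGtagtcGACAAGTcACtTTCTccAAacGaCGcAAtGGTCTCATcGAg
MAF3 (chr5:25987527-25987616): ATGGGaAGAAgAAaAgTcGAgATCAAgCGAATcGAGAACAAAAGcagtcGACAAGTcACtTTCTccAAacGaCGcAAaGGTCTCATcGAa
MAF4 (chr5:25992310-25992399): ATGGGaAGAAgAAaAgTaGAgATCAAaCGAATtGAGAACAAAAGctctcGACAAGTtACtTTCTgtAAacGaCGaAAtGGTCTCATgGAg
MAF5 (chr5:25997671-25997760): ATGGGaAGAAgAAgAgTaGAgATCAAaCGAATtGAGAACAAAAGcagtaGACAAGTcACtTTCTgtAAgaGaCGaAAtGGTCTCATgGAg
Of these 90 bases, 66 were the same in all 6 genes, and over the 185 bases shared by the exons the identity between pairs ran between 81.1% and 94.6%.

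Intron 1 also has a shared feature. In each of the 6 genes an RY core (TGCATG, sought on both strands) lay in intron 1 between 585 and 697 bp downstream of the start, a range that was set after the positions were seen, and 3.49% of the 25132 protein-coding genes longer than that hold one in the same range. In FLC both cores fell within a single nucleosome of the high digest mock list, centered 646 bp from the start (chr5:3178732-3178871), which is shown 5′ to 3′ along the gene with the RY cores in capitals.
FLC, nucleosome over the nucleation region: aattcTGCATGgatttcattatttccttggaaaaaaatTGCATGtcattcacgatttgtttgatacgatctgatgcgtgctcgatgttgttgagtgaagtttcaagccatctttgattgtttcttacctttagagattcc
The same region of the MAF genes is given as stretches of 70 bases, with the RY core in capitals (in MAF4 it reads CATGCA, the core on the other strand, and in MAF5 cores on both strands overlap).
MAF1 (chr1:28956146-28956215): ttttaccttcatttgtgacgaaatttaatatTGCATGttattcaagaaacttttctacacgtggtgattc
MAF2 (chr5:25982860-25982929): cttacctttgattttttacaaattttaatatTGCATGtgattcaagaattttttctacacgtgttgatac
MAF3 (chr5:25987972-25988041): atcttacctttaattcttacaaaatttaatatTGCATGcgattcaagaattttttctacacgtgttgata
MAF4 (chr5:25992766-25992835): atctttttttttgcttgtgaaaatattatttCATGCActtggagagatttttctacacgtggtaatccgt
MAF5 (chr5:25998060-25998129): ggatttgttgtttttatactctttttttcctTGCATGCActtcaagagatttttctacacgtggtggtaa
The longest run common to the 5 MAF stretches was the 13 bases ttttctaCACGTG, which end in the letters of a G-box core (in capitals). The run is absent from intron 1 of FLC and occurs at 7 places in the nuclear genome on both strands. The letters CACGTG alone lie within 1 kb downstream of the start of 10.7% of the 23067 genes of at least that length.

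Nucleosomes over FLC itself numbered 22 for low digest dex, 20 for low digest mock, 23 in the list labelled high digest dex and 40 for high digest mock. Exon 1, which encodes the DNA-binding MADS domain, carried a pair of them in every list. The first was centered 96 bp from the start for low digest dex and low digest mock and 116 bp in the list labelled high digest dex and for high digest mock. The second, over the end of exon 1, was the FLC nucleosome of highest occupancy in the list labelled high digest dex (chr5:3179112-3179251, center 266 bp), above 99.3% of that list. In high digest mock it lay at 256 bp and again ranked highest at the gene, above 96.9% of the list. Occupancy is the height of the smoothed coverage that the authors' caller gave, and it was compared only within a list. The first coding exon was covered over 83.8% of its bases for low digest dex, 83.8% for low digest mock, 94.6% in the list labelled high digest dex and 100% for high digest mock.

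**Figure D1:**
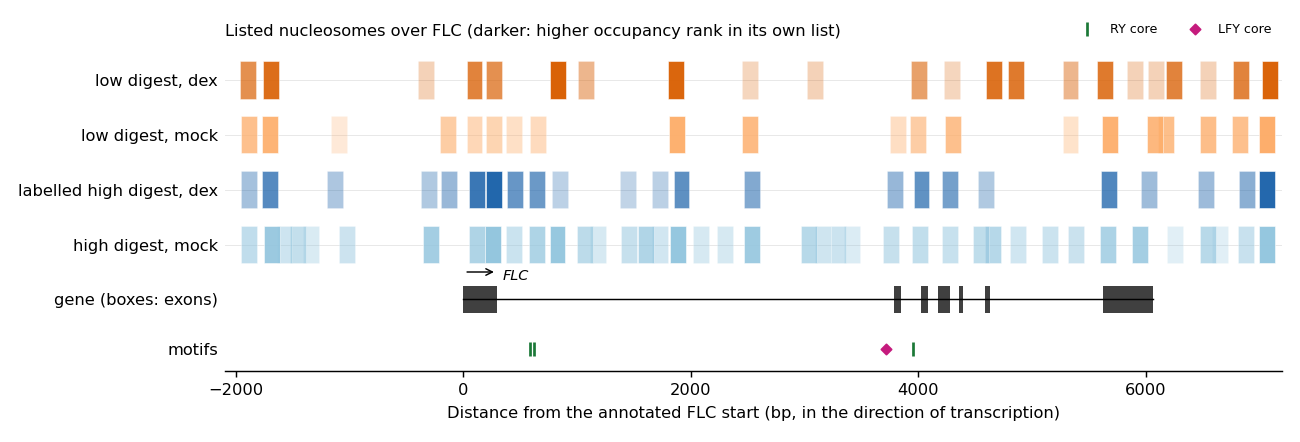
Listed nucleosomes of 140 bp over FLC in the 4 lists, by distance from the annotated start in bp, with the exons as boxes and RY and LFY cores marked. Darker boxes have a higher occupancy rank in their own list, and intron 1 holds 17 nucleosomes in high digest mock against 4 to 7 in the other lists.

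Across the nucleation region of FLC the lists parted. The RY core at 618 bp was covered for low digest mock, in the list labelled high digest dex and for high digest mock, and the core at 585 bp in the list labelled high digest dex and for high digest mock. For low digest dex neither was covered, and no nucleosome was listed there between the pair in exon 1 and one centered at 831 bp. That nucleosome at 831 bp (chr5:3178547-3178686) was the FLC nucleosome of highest occupancy for low digest dex, above 97.3% of the list. It was listed at 846 bp in the list labelled high digest dex, above 6.53% of that list, and at 826 bp for high digest mock, above 93.0%. It was missing for low digest mock. The position 656 bp (low digest mock) and 646 bp (the list labelled high digest dex, high digest mock) was thus held in 3 of 4 lists, and the dex and mock lists of the low digest differed in both places.

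The whole of intron 1 of FLC held 5 nucleosomes for low digest dex, 4 for low digest mock, 7 in the list labelled high digest dex and 17 for high digest mock. More than 1 kb from the start, 4 of these were centered for low digest dex, 2 for low digest mock, 4 in the list labelled high digest dex and 14 for high digest mock. A stretch of 1160 bp near the end of the intron, between 2587 and 3746 bp, was bare for low digest mock, and 1120 bp between 2607 and 3726 bp were bare in the list labelled high digest dex. The only LFY core (CCANTGG, both strands) of the FLC stretch lies within the last bases of that stretch, 3717 bp from the start, and was covered in high digest mock alone. Upstream, 550 bp between positions -953 and -404 bp were free of any nucleosome in all 4 lists, and this stretch had a GC content of 22.0%, against 36.2% for the bases of the FLC stretch covered in at least one list. Over the nuclear genome, bases covered in no list had 30.4% and those covered in at least one list 39.0%.

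Among the MAF genes, the first nucleosome downstream of the start was most alike between lists in MAF3, centered at 218 bp for low digest dex, 213 bp for low digest mock, 223 bp in the list labelled high digest dex and 223 bp for high digest mock. Its occupancy rank differed between them, above 3.78% of the list for low digest dex and 21.2% for low digest mock, against 91.8% in the list labelled high digest dex and 81.9% for high digest mock. In MAF5 this nucleosome lay at 108 bp for low digest dex, 158 bp for low digest mock, 158 bp in the list labelled high digest dex and 168 bp for high digest mock.

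For low digest dex, the shortest list, MAF1, MAF2 and MAF4 had no nucleosome centered within the first 300 bp. The share of all genes without one was not computed. In MAF2 one was listed at 168 bp for low digest mock, at 148 bp in the list labelled high digest dex and at 158 bp for high digest mock, and for low digest dex the first one stood at 303 bp. In MAF4 the first one for low digest dex was centered 769 bp from the start, while it was at 79 bp for low digest mock, 89 bp in the list labelled high digest dex and 29 bp for high digest mock. Its occupancy rank was above 45.0% of the list for low digest dex and 84.3% in the list labelled high digest dex. For low digest mock (0.171%) and high digest mock (0.870%) it stood near the bottom of the list. The first coding exon of MAF4 accordingly was uncovered for low digest dex (0%), and covered over 73.0% for low digest mock, 94.6% in the list labelled high digest dex and 100% for high digest mock. An uncovered first coding exon was common for low digest dex, where the lower quartile over all genes was also 0%. For low digest mock that quartile was 52.9%. In MAF1 the same exon was covered over 60.5% for low digest dex, 100% for low digest mock, 100% in the list labelled high digest dex and 83.8% for high digest mock.

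The start base itself was mostly free. It was covered in 1 of the 6 genes for low digest dex (MAF1), 1 for low digest mock (MAF3), 1 in the list labelled high digest dex (MAF1) and 1 for high digest mock (MAF4). The starts of all protein-coding genes were covered at 27.3% for low digest dex, 32.7% for low digest mock, 32.8% in the list labelled high digest dex and 40.1% for high digest mock. With 6 genes these counts cannot be set apart from those shares. Just upstream, MAF3 had a nucleosome in all 4 lists, centered at -127 bp for low digest dex, -117 bp for low digest mock, -127 bp in the list labelled high digest dex and -127 bp for high digest mock. The MAF3 start was covered for low digest mock by a further nucleosome at -7 bp. The strongest nucleosome of the MAF5 stretch at the low digest stood before the gene, at -352 bp for low digest dex and low digest mock (chr5:25997082-25997221), above 96.6% of the list in dex and 99.3% in mock.

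**Figure D2:**
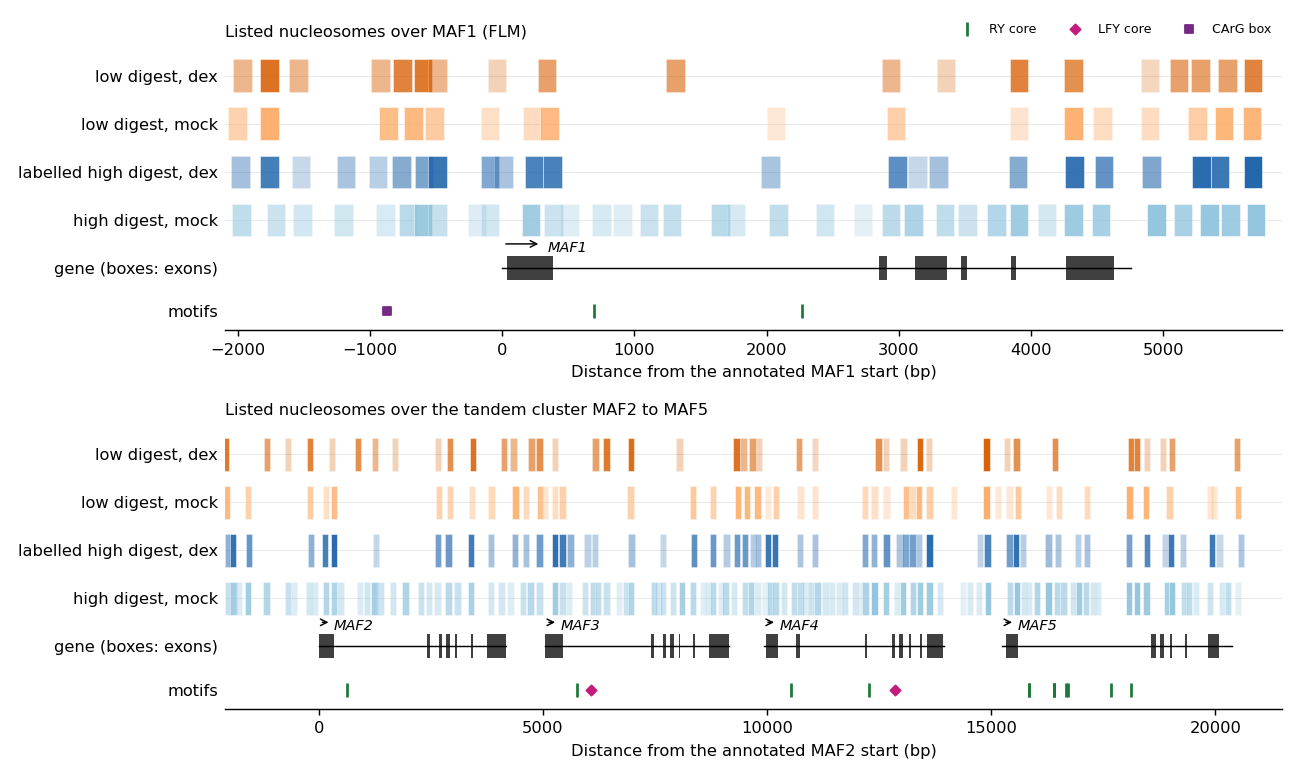
Listed nucleosomes over MAF1 (upper panel) and over the array MAF2 to MAF5 (lower panel), by distance in bp from the start of MAF1 or MAF2. Boxes are 140 bp wide and darker at a higher occupancy rank within their list, and the long first introns are sparsely covered except in high digest mock.

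The longest stretches with no nucleosome fell in part in first introns and in part elsewhere. In low digest dex that of FLC was 1220 bp upstream, that of MAF3 1130 bp between intron 5 and the downstream region, and that of MAF4 1275 bp between introns 2 and 3. In MAF1, 1490 bp were bare for low digest dex, 1570 bp for low digest mock and 1510 bp in the list labelled high digest dex, against 280 bp for high digest mock. That last gap lay around the end of the gene. Intron 1 of MAF1 held 1 nucleosome for low digest dex, 1 for low digest mock, 1 in the list labelled high digest dex and 11 for high digest mock. The longest gap of any of the 6 genes was in MAF2 for low digest mock, 2200 bp between intron 1 and intron 2. In intron 1 of MAF2, low digest dex had 3 nucleosomes, low digest mock 0, the list labelled high digest dex 1 and high digest mock 9.

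In MAF5 the longer gap at the low digest was in dex. It was 1560 bp of intron 1 for low digest dex and 810 bp for low digest mock, and intron 1 held 4 nucleosomes for low digest dex, 5 for low digest mock, 7 in the list labelled high digest dex and 14 for high digest mock. Downstream of MAF5, 728 bp were free in all 4 lists, with a GC content of 23.4%.

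The RY cores of the MAF genes within that range of intron 1 were covered in at most 1 list. Those at 639 bp in MAF2 and 697 bp in MAF3 were bare in all 4 lists, and those at 696 bp in MAF1, 606 bp in MAF4 and 589 bp in MAF5 were covered in high digest mock alone. Further into intron 1 of MAF5, the core at 2870 bp was covered in all 4 lists, and those at 1146, 1148 and 1150 bp were covered for low digest dex and uncovered for low digest mock and in the list labelled high digest dex. Over all 18 RY cores of the 6 stretches, 9 of them in MAF5, 5 were covered for low digest dex, 3 for low digest mock, 3 in the list labelled high digest dex and 11 for high digest mock. As shares these are 27.8% for low digest dex, 16.7% for low digest mock, 16.7% in the list labelled high digest dex and 61.1% for high digest mock. Genome-wide the covered share of RY cores was 33.2% for low digest dex, 36.6% for low digest mock, 43.0% in the list labelled high digest dex and 58.9% for high digest mock. Of all 2 kb upstream regions, 54.4% hold one, but all 18 cores here lie in introns and none upstream, so this is not a like count.

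LFY cores were few at these genes, with none in MAF1, MAF2 and MAF5 and 1 each in FLC, MAF3 and MAF4. They are shown along the gene with the core in capitals, because the fusion protein activated by dex recognises these letters.
FLC, intron 1, 3717 bp (chr5:3175708-3175754, minus strand): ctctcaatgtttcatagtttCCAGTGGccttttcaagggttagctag
MAF3, intron 1, 1024 bp (chr5:25988310-25988356): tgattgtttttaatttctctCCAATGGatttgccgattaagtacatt
MAF4, exon 4, 2913 bp (chr5:25995083-25995129): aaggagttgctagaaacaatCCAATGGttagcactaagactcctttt
None of these was covered for low digest dex, low digest mock or in the list labelled high digest dex, and all 3 were covered for high digest mock. Genome-wide, LFY cores were covered at 39.8% for low digest dex, 53.8% for low digest mock, 59.3% in the list labelled high digest dex and 65.5% for high digest mock. Of all 2 kb upstream regions, 24.6% hold one, but the 3 cores here lie within genes and none upstream, so this is not a like count. The share of whole stretches of other genes that hold one was not computed. A CArG box, the kind of site that MADS-domain proteins bind, occurred once, at -870 bp in MAF1. Among 2 kb upstream regions, 12.7% hold one. It was covered for low digest dex, low digest mock and high digest mock, and uncovered in the list labelled high digest dex.

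Taking whole genes, the bodies of the 6 genes were less covered than those of most genes, and the gap was narrowest for high digest mock. The median covered share of the gene body was 23.1% over the 6 genes against 37.8% over all 27444 protein-coding genes for low digest dex, 23.4% against 50.7% for low digest mock, 34.0% against 59.5% in the list labelled high digest dex, and 62.8% against 70.9% for high digest mock. All 6 were below the median of all genes in the first 3 lists, and 5 in high digest mock, where MAF4 at 78.5% was the exception. The lowest body was that of MAF3 for low digest dex (17.1%), and the highest in the list labelled high digest dex was that of MAF4 (41.6%).

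Exons of the 6 genes lay below the median of all genes in 5 of 6 for low digest dex, 6 for low digest mock, 2 in the list labelled high digest dex and 4 for high digest mock. Exons of FLC were covered over 63.4% for low digest dex, 57.1% for low digest mock, 67.3% in the list labelled high digest dex and 68.4% for high digest mock, where the median of all genes was 42.6%, 59.3%, 66.9% and 74.8% in these lists. FLC was the one gene above it for low digest dex, and MAF3 had the lowest exon value there (15.7%). Introns lay below the median of all genes in 5 of 6 for low digest dex, 5 for low digest mock, 6 in the list labelled high digest dex and 1 for high digest mock. The introns of FLC were covered over 26.8% for low digest dex, 20% for low digest mock, 27.2% in the list labelled high digest dex and 61.6% for high digest mock, where the median of all genes was 24.1%, 28.2%, 40.5% and 60.8% in these lists. In MAF1 the introns stood at 12.6% for low digest dex, 12.5% for low digest mock, 14.4% in the list labelled high digest dex and 61.9% for high digest mock.

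Introns of at least 1 kb are uncommon as first introns, and 390 genes have one. Within that class, in high digest mock all 5 members other than MAF4 lay above the median of the class, between 57.1% and 65.6% against 44.2%, and in the list labelled high digest dex FLC (31.0%), MAF3 (31.1%) and MAF5 (34.0%) lay above its median of 22.8% and MAF1 (8.42%) and MAF2 (9.71%) below it. For low digest dex the median was 15.5%, with MAF1 (6.80%) below it and the other members between 19.8% and 21.5%. For low digest mock it was 14.2%, with FLC (18.4%) and MAF5 (25.9%) above and MAF2 (2.98%) lowest.

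**Figure D3:**
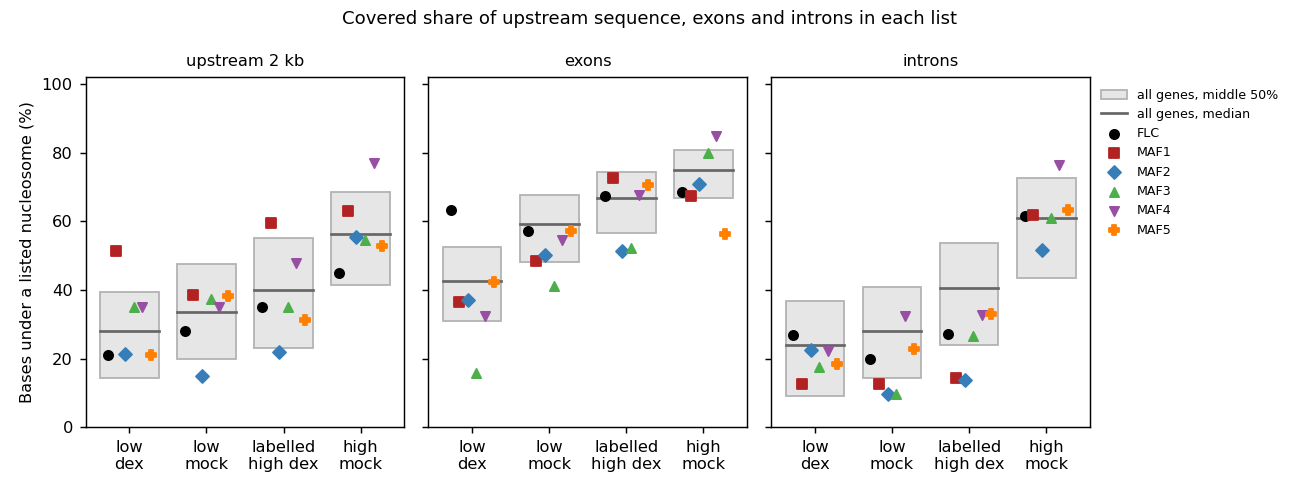
Share of bases under a listed nucleosome (%) in the upstream 2 kb, exons and introns of each gene, by list, over the middle 50% (grey box) and the median (line) of all protein-coding genes. Introns of the 6 genes lie between 9.71% and 32.9% in low digest dex, low digest mock and the list labelled high digest dex, and between 51.8% and 76.5% in high digest mock.

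Dex and mock were set side by side within each digest over the whole stretch of each gene, calling a gene where its covered share differed by at least 10 percentage points. The stretches of MAF2 to MAF5 overlap their neighbours, and a shared base entered the share of each gene. The 6 values and calls are therefore not independent. At the low digest, FLC was covered over 32.9% in dex and 29.7% in mock, MAF1 over 33.5% in dex and 29.7% in mock, and MAF2 over 27.4% in dex and 23.2% in mock. MAF3 had 27.6% in dex and 29.4% in mock, MAF4 25.7% in dex and 35.7% in mock, and MAF5 20.6% in dex and 27.9% in mock. None of the 6 was called in either direction, where 0.802% of all genes were called higher and 40.3% lower in dex. The differences of FLC, MAF1 and MAF2 (3.25, 3.81 and 4.18 points) were positive and stood above those of 93.8%, 94.8% and 95.3% of all genes, whose median was -8.04 points. MAF4 (-9.99) and MAF5 (-7.37) lay near that median.

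At the high digest, all 6 stretches were called lower in the list labelled high digest dex than in high digest mock, beside 62.7% of all genes called lower and 0.051% higher. FLC was covered over 34.7% in the list labelled high digest dex and 58.5% in mock, a difference of -23.7 points. MAF4 had 41.0% in the list labelled high digest dex and 74.2% in mock (-33.2 points), and MAF2 had 25.6% in the list labelled high digest dex and 56.2% in mock (-30.6 points). The differences of MAF1, MAF3 and MAF5 lay between -25.4 and -20.8 points. All 6 exceeded the median of all genes, -12.4 points, in size, and those of MAF2 and MAF4 stood above 1.23% and 0.601% of genes, the lowest ranks of the 6. The list labelled high digest dex has lines that are named after a low digest dex library. This list holds 376240 nuclear nucleosomes. The total that the study's methods report for high digest dex is close to that length, and their total for low digest dex is far below it. The low digest dex list, with 242336 nuclear nucleosomes, is itself somewhat longer than the total reported for it. Each other list is slightly shorter than its reported total, and the reason for the mismatch is not known. Every value given for the list labelled high digest dex follows its label, and the origin of its line names is not known.

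These lists differ in length, and a longer list covers more. When each was cut to its 242336 nucleosomes of highest occupancy, the difference at the high digest shrank to -4.76 points over the 6 stretches together, against -26.1 points with the full lists, and of the 6 genes MAF5 alone was still called lower (-13.7 points), beside 10.1% of all genes called lower and 7.43% higher. At the low digest the same cut gave differences between 2.00 and 11.0 points, all positive, with MAF1 called higher, beside 8.58% of all genes called higher and 7.05% lower around a median of 0.06 points. The depth of these libraries is not known, and its part in the differences was not tested.

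**Figure D4:**
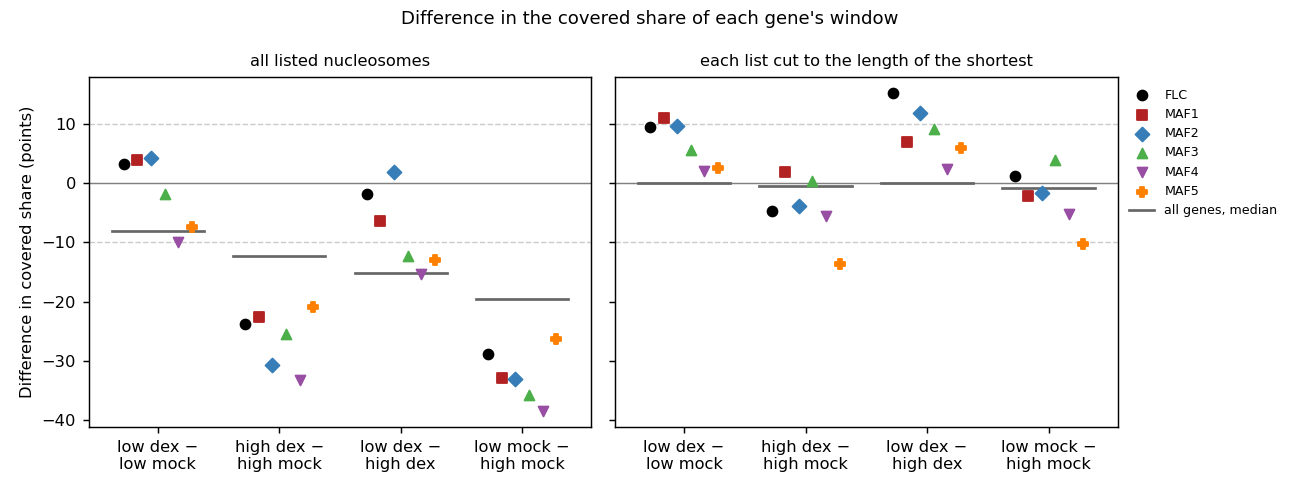
Difference in the covered share of each gene's stretch (percentage points) for 4 pairs of lists, with all nucleosomes (left) and with each list cut to the length of the shortest (right). High dex is the list labelled high digest dex, grey lines are medians of all protein-coding genes and dashed lines mark 10 points, and the differences between -38.5 and -20.8 points against high digest mock on the left lie between -13.7 and 3.94 points on the right.

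The low and high digests were compared in the same way. In mock, all 6 stretches were less covered at the low digest, by differences between -38.5 (MAF4) and -26.4 points (MAF5), where 87.3% of all genes were called lower and 0.0109% higher. In dex, MAF3 (-12.3 points), MAF4 (-15.3) and MAF5 (-12.9) were called lower at the low digest, beside 71.7% of all genes called lower and 0.138% higher. FLC had 32.9% at the low digest and 34.7% in the list labelled high digest dex, and MAF2 27.4% and 25.6%, both within 2 points. After the cut to equal length, FLC (15.2 points) and MAF2 (11.8) were called higher at the low digest in dex and none of the 6 lower, beside 11.8% of all genes called higher and 11.6% lower. In mock MAF5 alone of the 6 was called lower (-10.2 points), beside 14.3% of all genes.

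The lists were also compared nucleosome by nucleosome. Recovery in another list required that this list cover 50% or more of the nucleosome. Of the 82 nucleosomes for low digest dex, 56 (68.3%) were recovered in low digest mock, against 80% of the whole list. Of the 83 for low digest mock, 55 (66.3%) were recovered in low digest dex, against 61.5%. Of the 103 in the list labelled high digest dex, 98 (95.1%) were recovered in high digest mock, against 92.5% of the whole list. Of the 184 for high digest mock, 100 (54.3%) were recovered in the list labelled high digest dex, against 73.0%.

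Nucleosomes recovered in both lists of one digest or treatment and in neither of the others were counted from each of the lists that hold them. For both low digest lists and neither high digest list, a class called fragile because heavier digestion removes it, the count was 0 of 82 from low digest dex (1.13% of the whole list) and 1 of 83 from low digest mock (0.745% of the whole list). That nucleosome lay just past the end of FLC, centered 6176 bp from the start, and 42.9% of it was covered in high digest mock. For both high digest lists and neither low one, the count was 15 of 103 from the list labelled high digest dex (14.6%, against 12.3% of the whole list) and 16 of 184 from high digest mock (8.70%, against 10.5%). Those of the list labelled high digest dex included the pair at 1446 and 1726 bp in intron 1 of FLC and those at 563 and 943 bp in intron 1 of MAF3.

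In both dex lists and neither mock list, 1 of 82 nucleosomes was counted from low digest dex, centered 3578 bp into MAF5 in exon 3, and 1 of 103 from the list labelled high digest dex, centered 9 bp from the start of MAF1. These are 0.979% and 0.591% of the 2 whole lists. In both mock lists and neither dex list, 0 of 83 were counted from low digest mock (2.56% of the whole list) and 1 of 184 from high digest mock (2.28% of the whole list). That nucleosome stood at -1024 bp in FLC, and exactly 50% of it was covered in low digest mock.

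High digest mock held the most nucleosomes that no other list recovered, 63 of its 184 (34.2%, against 18.4% of the whole list). Low digest dex held 1 of 82 (1.22%, against 1.53% of the whole list) and low digest mock 3 of 83 (3.61%, against 1.06%). The list labelled high digest dex held 0 of 103, against 2.25% of the whole list. Of these 63, 48 were centered in introns, 4 in exons, 7 upstream, 3 downstream and 1 in the gene outside the transcript. Of all 184, 103 were centered in introns, 29 in exons, 32 upstream and 17 downstream. Among the 52 high digest mock nucleosomes recovered in all 4 lists, 19 were in introns and 11 in exons. The share in introns was not computed for the whole list. The 63 were AT-rich, with a median GC content of 31.4%, against 40.4% for those 52. The 63 ranked low in occupancy, at a median above 19.5% of the list against 63.5% for the 52. The whole high digest mock list shows the same order, with 32.1% GC for nucleosomes found in no other list and 42.1% for those in all. The part of base composition, digestion or depth in this was not tested.

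**Figure D5:**
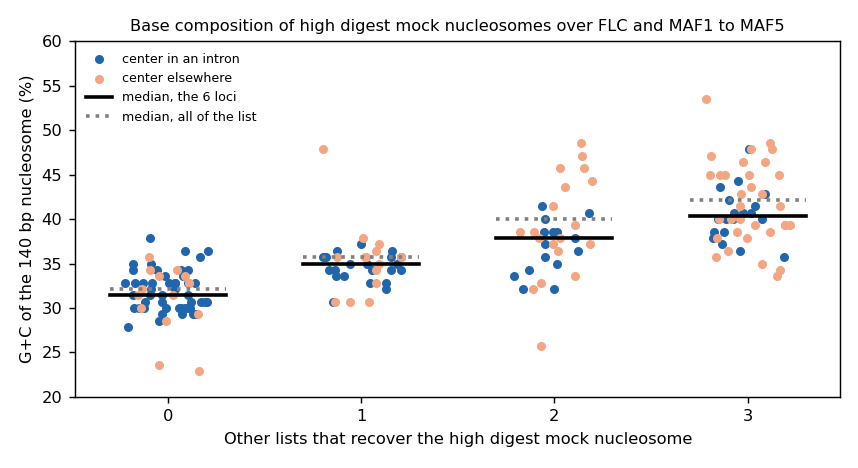
GC content (%) of the 184 high digest mock nucleosomes over FLC and MAF1 to MAF5, by how many of the other lists recover them, with centers in introns in blue. Black bars are medians of these nucleosomes (31.4% for none, 40.4% for 3 other lists) and dotted bars those of the whole list (32.1% and 42.1%).

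Bases covered in all 4 lists made up 13.0% of the 40185 bp, against 15.3% of the nuclear genome, and bases covered in none 29.2%, against 34.7%. MAF1 had the largest share in all lists (17.4%) and MAF2 the smallest (9.93%), and MAF4 had the smallest share covered in none (16.1%). Covered bases had a GC content of 36.1% and bare ones 26.8%, against 39.0% and 30.4% in the nuclear genome, where the order was the same. With the list labelled high digest dex left out, an alternative added after the data were seen, the count of nucleosomes recovered in all lists stayed within 1.5 times its value.

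To see whether any of the 6 genes resembled another around the start, covered bins of 10 bp within 1000 bp of the start on either side were compared over the 4 lists by the Jaccard index, the bins covered in both genes over those covered in either. FLC was most like AT5G59770 (0.585), followed by AT5G07330 (0.579) and AT3G50010 (0.552), where the median over 27441 genes was 0.309. The nearest gene was AT2G37870 for MAF1 (0.600), AT2G35010 for MAF2 (0.522), AT4G28068 for MAF3 (0.575), AT5G08565 for MAF4 (0.583) and AT4G10090 for MAF5 (0.579). None was a member of the family. Within the family MAF1 and MAF3 were closest (0.448), at an index above that of 93.3% of genes with MAF1 and 98.6% with MAF3. FLC and MAF1 were farthest apart (0.205), at an index above that of 11.4% of genes with FLC and 13.7% with MAF1. The other pairs lay between these.

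A list of 37 regulators of FLC, of the autonomous, vernalization, FRIGIDA, Polycomb, PAF1 and SWR1 groups, was read in the same way. The stretches of FLC and the MAF genes had a median covered share of 27.5% against 38.8% for the regulators in low digest dex, 29.5% against 48.2% in low digest mock, 37.3% against 55.3% in the list labelled high digest dex, and 60.5% against 65.8% in high digest mock. The median over all genes was 32.6%, 41.3%, 48.9% and 62.7% in these lists. In each list the median of the regulators lay above it and that of FLC with the MAF genes below it. Single genes did not all follow their group. Of the 6 genes, 4 lay below it in low digest dex and 4 in high digest mock. All 6 lay below it in low digest mock and in the list labelled high digest dex. In dex against mock, 12 of the 37 regulators were called lower at the low digest (32.4%, against 40.3% of all genes) and 21 at the high digest (56.8%, against 62.7%), and none higher. At the low digest the ends were LD, a homeodomain protein of the autonomous pathway (4.78 points), and LDL1, a histone demethylase (-27.1), and at the high digest LDL2, its relative (3.39), and VAL2, a paralogue of VAL1 (-22.8). Between the digests, 35 were called lower at the low digest in dex (94.6%, against 71.7% of all genes) and 30 in mock (81.1%, against 87.3%), with the ends at VEL1, a VIN3 relative (-2.73), and PIE1, the SWR1 ATPase (-27.7), in dex and PIE1 (-3.40) and VRN1, a B3-domain protein of vernalization (-33.6), in mock.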

How the data were processed

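MNase-seq libraries of Arabidopsis callus were processed by the authors, who per the study's methods placed read pairs with a single position on TAIR10 with bowtie (version 1.2.2 per the submitters' processing notes, which also name Picard 2.9.4) and called nucleosomes with DANPOS. The 4 deposited lists give intervals of 140 bp and a signal, the summit occupancy. Replicates were pooled before the call for low digest dex, and how they were combined elsewhere is not given in the sources used here. All occupancies for low digest dex were multiples of 8, unlike the others, so the signal was only ranked within a list. Interval starts were taken to be 0-based and are given 1-based. Read depth is unknown, and 0 columns of per-sample values were left unused.

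Coverage, recovery, motif and sequence values were computed with Python 3.11.15, numpy 2.4.6 and pandas 2.3.3 on TAIR10.1 with RefSeq models (nuclear chromosome lengths equal to those of TAIR10) and checked on simulated lists. The transcript of longest coding sequence stood for each gene, and a motif counted as covered where its middle base was. The 6 genes were all named, with nucleosomes, motifs, similar genes and 37 regulators by fixed rules. The members and lists were chosen with earlier results of these data known. No protein or promoter table was used here.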

Additional observations from a re-analysis of the deposited data

How the results depend on the processing

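No paired analysis was possible because each condition is represented by 1 list. Of 111 alternative values, 63 stayed close to the reported one (counts within 1.5 times, shares within a Wilson 95% interval taking the stretches as units of 140 bp) and 48 moved. A narrower window, leaving out recurring 50-mers, requiring the center inside, a start within 75 bp and leaving out the list labelled high digest dex moved none. Values follow the order low dex, low mock, labelled high dex, high mock, where 4 are given.

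With lists of equal length, the stretches held 55 nucleosomes in the list labelled high digest dex and 69 for high digest mock, and the covered share was 20.1% for low mock, 18.9% for labelled high dex and 23.6% for high mock, where each list then covered 27.9% or 28% of the genome. Low dex, the shortest list, kept its 27.8%. The differences became 7.69 points for low dex minus low mock, -4.76 for high dex minus high mock, 8.93 for low dex minus high dex (with the full lists -7.17, so the direction turned) and -3.52 for low mock minus high mock. Members called were 1 higher for low dex against low mock (8.58% of all genes) and 1 lower for high dex against high mock (10.1%). For low dex against high dex, 0 were lower (11.6%) and 2 higher (11.8%), and for low mock against high mock 1 was lower (14.3%). Covered starts among the members numbered 0 in low mock, labelled high dex and high mock. The share of all gene starts covered at equal length was not computed, so whether these counts are low cannot be judged.

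With the upper 50% of each list, the stretches held 39, 34, 43 and 67 nucleosomes and were covered over 13.0%, 11.3%, 14.8% and 23.0%, with differences of -8.14 points for high dex minus high mock and -11.7 for low mock minus high mock. A call at 5 points gave 2 members lower for low dex against low mock (MAF4, MAF5), and at 20 points 0 lower for low dex against high dex. The shares of all genes called at 5 or 20 points were not computed. The median difference over all genes was -8.04 points for low dex against low mock and -15.1 points for low dex against high dex.

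Recovery at 80% overlap was 43.9% (low dex in low mock), 49.4% (low mock in low dex), 74.8% (labelled high dex in high mock), 39.1% (high mock in labelled high dex), 52.4% (low dex in labelled high dex), 38.8% (labelled high dex in low dex), 68.7% (low mock in high mock) and 26.6% (high mock in low mock). An overlap of 1 bp gave 99.0% (labelled high dex in high mock), 67.4% (high mock in labelled high dex), 96.4% (low mock in high mock) and 52.2% (high mock in low mock). Equal lengths gave 57.3% (low dex in low mock), 76.7% (low mock in low dex), 72.7% (labelled high dex in high mock), 48.8% (low dex in labelled high dex), 72.7% (labelled high dex in low dex), 58.3% (low mock in high mock) and 53.6% (high mock in low mock). The lists hold no read counts, so whether a missing nucleosome was absent or too shallow to call cannot be told apart.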
